A study of Mus musculus with 4 samples.

Results

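The regenerating islet-derived (Reg) genes of the mouse were read out in 4 libraries of pancreatic islet RNA. The 7 members (Reg1, Reg2, Reg3a, Reg3b, Reg3d, Reg3g and Reg4) were taken by symbol from a table of 55487 genes, and all 7 were found there. The islets came from C57BL/6 mice aged 30 weeks. Both groups were homozygous for a floxed allele of Ggcx, which encodes gamma-glutamyl carboxylase, an enzyme that needs vitamin K to modify its substrate proteins. The control libraries (n = 2) were Ggcx flox/flox without Cre, and the knockout libraries (n = 2) were Ggcx flox/flox; Pdx1-Cre. Each library pooled the islets of 2 mice. Pdx1-Cre is driven by a promoter that is active in the precursors of endocrine, acinar and duct cells, so the deletion is not limited to islet cells. Neither group had Cre with unfloxed Ggcx, so the effects of the transgene and of the loss of Ggcx cannot be told apart. The control libraries are named by their column numbers in the deposited table, 2 and 3, which could not be tied to single samples of the labels.

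Reg proteins are small secreted proteins with a C-type lectin-like fold. In the pancreas Reg1, known as lithostathine or pancreatic stone protein, and Reg2 are products of the digestive-enzyme-secreting acinar cells. Reg3b, known as pancreatitis-associated protein, and its relatives are strongly induced in the inflamed exocrine pancreas and in the gut, where Reg3g kills Gram-positive bacteria and where interleukin-22 signalling through STAT3 drives both genes. Reg4 is known mainly from secretory cells of the intestine.

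The libraries held 47624630 to 51756221 reads assigned to genes. Values are normalised read counts, in which 1 read is worth close to 1 unit. Ggcx read 3971 and 3981 in control columns 2 and 3, but 234.2 and 643.4 in knockout replicates 1 and 2, with a log2 fold change of -3.35 ± 0.35 (SE; limma adjusted p = 0.0163). That call was lost when low genes were not filtered out (adjusted p = 0.217), when the trend was left out of limma (0.329) and under robust empirical Bayes (0.294). The genes that define islet endocrine cells led the libraries: Ins2 (insulin) averaged 6324565 ± 234760 in controls, Gcg (glucagon) 1185241 ± 125514 and Sst (somatostatin) 119164 ± 1461 (SD, n = 2). Over all genes measured, 41 were called higher and 62 lower in knockout islets, which is 0.621% of the 16589 genes tested. An unadjusted limma p under 0.05 was reached by 14.1% of them. Scaling to a common upper quartile turned that split to 76 higher and 34 lower.

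Of the 7 members, 6 lie together. Their cluster spans 98.2 kb of chromosome 6 (GRCm38, 78370657 to 78468872, GENCODE M21) in the order Reg3b, Reg3d, Reg3a, Reg2, Reg1 and Reg3g, with Reg3d and Reg3g on the minus strand, and the gene spans do not overlap. Among protein-coding genes ending before the cluster, Lrrtm1 had the latest start, 1128 kb before Reg3b. Its values were 83.8, 64.3, 84.3 and 111.2 in control columns 2 and 3 and knockout replicates 1 and 2. Whether a gene that starts earlier ends nearer was not checked. Reg4 lies alone on chromosome 3 (98222156 to 98236748, plus strand). No stretch of 50 bases in the annotated transcripts was shared between any pair of members, so a read matching that length exactly can be assigned to 1 member. Some stretches of Reg1 (32 of 876) and Reg2 (102 of 899) also occur in transcripts of other genes. Coding identity was highest between Reg1 and Reg2, at 83.2%, and reached 78.4% between Reg3b and Reg3g.

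The start regions of 5 cluster members are shown because the first 3 of them shared a pattern across libraries that the last 2 did not. Each runs from 250 bases before to 50 bases after the RefSeq transcript start (GRCm38.p6) and is written 5′ to 3′ on the gene's own strand. Capitals mark matches, on either strand, to 4 short motifs chosen after the sequences and values were known: TATAAA (the core of a TATA box), TTCNNNGAA (the STAT consensus), CACCTG (an E-box) and TTCCCA (the RBPJ core).
Reg3b (chr6:78370635-78370934, plus strand): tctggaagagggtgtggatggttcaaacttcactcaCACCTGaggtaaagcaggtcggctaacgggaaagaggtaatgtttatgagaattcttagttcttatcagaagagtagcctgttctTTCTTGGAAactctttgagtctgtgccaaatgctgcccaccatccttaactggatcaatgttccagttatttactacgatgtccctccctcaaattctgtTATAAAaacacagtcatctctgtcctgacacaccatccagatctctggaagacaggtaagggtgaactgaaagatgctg
Reg3g (chr6:78468825-78469124, minus strand): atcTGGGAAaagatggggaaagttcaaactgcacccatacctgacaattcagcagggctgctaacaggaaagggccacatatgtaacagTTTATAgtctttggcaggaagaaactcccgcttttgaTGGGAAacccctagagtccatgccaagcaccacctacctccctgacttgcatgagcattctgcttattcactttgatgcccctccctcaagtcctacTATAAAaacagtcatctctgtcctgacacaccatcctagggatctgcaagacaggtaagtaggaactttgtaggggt
Reg3a (chr6:78380459-78380758, plus strand): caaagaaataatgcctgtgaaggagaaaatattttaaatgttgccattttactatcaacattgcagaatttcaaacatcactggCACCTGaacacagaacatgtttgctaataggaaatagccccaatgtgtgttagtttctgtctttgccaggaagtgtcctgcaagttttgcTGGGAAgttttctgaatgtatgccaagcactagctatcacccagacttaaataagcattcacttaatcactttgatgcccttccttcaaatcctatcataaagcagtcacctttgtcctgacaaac
Reg1 (chr6:78425733-78426032, plus strand): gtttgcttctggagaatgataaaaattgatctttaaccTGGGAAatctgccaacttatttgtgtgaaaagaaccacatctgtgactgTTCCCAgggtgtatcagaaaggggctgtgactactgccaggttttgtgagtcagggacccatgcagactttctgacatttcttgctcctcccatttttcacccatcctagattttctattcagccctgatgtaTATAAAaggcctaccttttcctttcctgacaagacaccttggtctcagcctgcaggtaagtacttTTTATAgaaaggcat
Reg2 (chr6:78404905-78405204, plus strand): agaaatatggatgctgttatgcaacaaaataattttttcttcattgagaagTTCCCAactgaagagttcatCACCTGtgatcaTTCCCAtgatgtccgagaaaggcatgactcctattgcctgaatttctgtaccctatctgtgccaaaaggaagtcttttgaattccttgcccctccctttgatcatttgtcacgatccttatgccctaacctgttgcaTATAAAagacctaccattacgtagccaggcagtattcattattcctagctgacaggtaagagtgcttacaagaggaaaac

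TATAAA was present close upstream of the start in Reg1 and Reg2 (first base at -30), Reg3b (-29) and Reg3g (-27), while the Reg3a window held none. Of 32851 mouse start regions of the same length, 13.6% held TATAAA. The STAT motif was found in Reg3b, at -129, and in Reg3d, at -238, and in neither Reg3g nor Reg3a. It occurred in 8.30% of all start regions. In Reg3d it overlapped a TTCCCA match. CACCTG was found in Reg2, Reg3a, Reg3b, Reg3d and Reg4 against 20.2% of start regions, and TTCCCA in Reg1, Reg2, Reg3a, Reg3d and Reg3g against 25.6%. Reg3b and Reg3g also shared an unbroken run of 29 bases that starts at -20 in both, given here in lower case.
shared by Reg3b and Reg3g: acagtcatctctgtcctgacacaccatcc
The longest run shared by any other pair of members was 14 bases, between Reg3a and Reg3g.

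In control islets Reg1 was the leading member per length. Per kb of exon, control levels were 400 ± 2.90 for Reg1 and 88.6 ± 2.25 for Reg2 (normalised read count per kb, SD, n = 2). Reg3d followed at 8.34 ± 2.99 and Reg3b at 5.29 ± 4.27 on the same scale, and these neighbours in the order did not differ beyond their spread. Reg3g (0.663), Reg3a (0.619) and Reg4 (0.477) rested on at most 1 read in a control library and could not be ordered. In knockout replicate 2 the order of levels per kb was another: Reg1 stood at 333, Reg3b at 187, Reg2 at 158, Reg3g at 53.5, Reg3a at 37.2 and Reg3d at 23.3, while Reg4 had no read. Reg3b and Reg2 there rested on 168 and 157 reads. In bulk islet RNA, fewer cells of a type and less RNA per cell cannot be told apart.

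**Figure D1:**
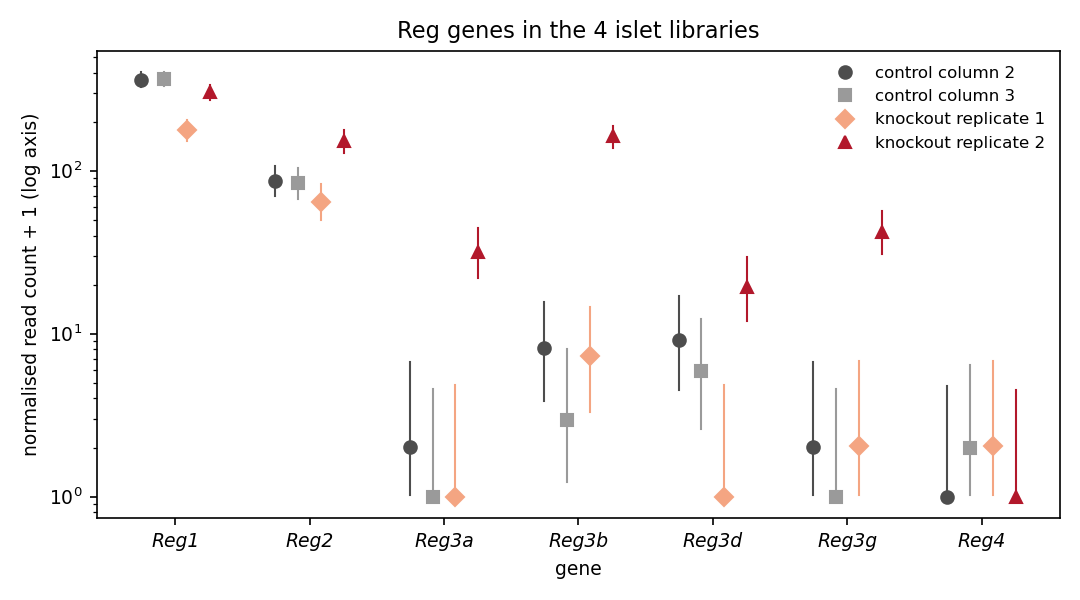
Normalised read count plus 1 (log axis) of the 7 Reg genes in each of the 4 islet libraries, with bars for the exact Poisson 95% interval of the reads, which covers counting error only. Knockout replicate 2 is the highest point for Reg2, Reg3a, Reg3b, Reg3d and Reg3g, and knockout replicate 1 is the lowest for Reg1, Reg2 and Reg3d.

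Reg1, the stone protein gene, was 359.7 and 363.4 in control columns 2 and 3, and 175.9 and 301.1 in knockout replicates 1 and 2. Both knockout libraries were below both controls, replicate 1 by more than replicate 2. The share of all genes with such a separation was not counted. The mean was 362 ± 2.62 in control and 238 ± 88.5 in knockout islets (SD, n = 2). The log2 fold change of -0.65 ± 0.21 did not pass the test (limma, adjusted p = 0.204). Without knockout replicate 2 it was -1.04 with an adjusted p of 0.00334, and without knockout replicate 1 it was -0.26 with an adjusted p of 0.590. In each of these fits the knockout arm is 1 library, so the spread comes from the 2 controls and from that borrowed across genes, and the lone library is assumed to vary likewise. The authors' deposited table gives Reg1 a log2 of 0.598 (control over knockout) with an adjusted p of 0.190.

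Reg2, the closest relative of Reg1, was 85.8 and 82.8 in control columns 2 and 3, and 63.5 and 150.5 in knockout replicates 1 and 2. The controls lay between the knockout libraries, so the groups overlapped. The log2 fold change was 0.21 ± 0.34 (limma adjusted p = 0.837), and without knockout replicate 2 it was -0.40 (adjusted p = 0.726, with 1 knockout library). Reg2 in knockout replicate 2 was 1.75-fold (95% counting interval 1.34 to 2.31) above control column 2 and 2.37-fold (1.75 to 3.24) above knockout replicate 1. The ratio of Reg2 to Reg1 therefore varied: per 100 of Reg1 it was 23.9 and 22.8 in controls, and 36.1 and 50 in knockout replicates 1 and 2. That ratio was higher in both knockout libraries, where an exact permutation test of 2 against 2 gives p = 0.33 (two-sided), the smallest this design allows.

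Reg1 and Reg2 were the only members that reached a value of 10 in 2 or more libraries, the condition for testing. Of these 2 tested members, 0 were called by limma, edgeR or DESeq2 at an adjusted p under 0.05, where 0.621% of all genes tested were called by limma. An unadjusted limma p under 0.05 was reached by 1 of the 2 (Reg1), against 14.1% of all genes tested. The other 5 members are given by their values. No test is given for Reg3a, Reg3b, Reg3d and Reg3g, since each reached a value of 10 in knockout replicate 2 alone, and a filter that let them in would do so through the library where they are high.

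Reg3b, the pancreatitis-associated protein gene, had 7 and 2 reads in control columns 2 and 3 and 6 in knockout replicate 1, but 168 in knockout replicate 2. In normalised values these were 7.15, 1.95, 6.24 and 161.1. The high value was that of 1 library, and the other knockout library lay between the controls. Knockout replicate 2 was 25.8-fold (95% counting interval 11.6 to 71.3) above knockout replicate 1, of the same genotype, and 22.5-fold (10.7 to 56.9) above control column 2. The knockout mean was accordingly 83.7 ± 109 (SD, n = 2), a spread larger than the mean. The log2 difference (knockout minus control mean of log2(value + 1), also used for the other Reg3 genes) was 2.81, and 0.56 without knockout replicate 2. The authors' deposited table gives Reg3b a log2 of -4.20 (control over knockout) with p = 0.0277 and no adjusted p. Its p-values for Reg3g, Reg3a and Reg3d are 0.0526, 0.266 and 0.710, also with no adjusted p. The deposited p for Reg3b rests on the same 1 high library, so no weight is put on it.

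Reg3g, the bactericidal lectin gene, had 1 and 0 reads in control columns 2 and 3, 1 in knockout replicate 1 and 43 in knockout replicate 2. Reads outside knockout replicate 2 were thus at the limit of counting. Knockout replicate 2 was 39.6-fold (95% counting interval 6.74 to 1601) above knockout replicate 1. Against control column 3, with no read, the ratio was 14.1, taking 3 reads in that library as the limit that a count of 0 allows. The counting error of the 43 reads is left out there, so 14.1 is not a lower limit. The knockout values do not overlap the control values only because 1 read is worth 1.04 in knockout replicate 1 and 1.02 in control column 2. The log2 difference was 2.71, and 0.52 without knockout replicate 2.

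Reg3a, another relative of this type, had 1 and 0 reads in control columns 2 and 3, 0 in knockout replicate 1 and 32 in knockout replicate 2. It followed the same library as Reg3b and Reg3g. Knockout replicate 2 was 30.0-fold (95% counting interval 5.02 to 1223) above control column 2. Against knockout replicate 1 the ratio was 9.83 with the same allowance of 3 reads, again without the counting error of the 32 reads. The log2 difference was 1.99. Without knockout replicate 2 it was -0.51, on 1 read in all.

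Reg3d, which lies between Reg3b and Reg3a on the opposite strand, had 8 and 5 reads in control columns 2 and 3, 0 in knockout replicate 1 and 19 in knockout replicate 2. Knockout replicate 2 was again the highest, but its distance to the controls was smaller: 2.23-fold (95% counting interval 0.932 to 5.89) above control column 2, an interval that includes no difference, and 3.74-fold (1.35 to 12.8) above control column 3. Knockout replicate 1 had none of its 47624630 reads on Reg3d, and its 95% counting interval reached 3.84. The intervals of control columns 2 and 3 were 3.53 to 16.1 and 1.58 to 11.4, so both overlapped it. The direction of the mean depended on the scale. The mean was 6.52 ± 2.34 in control and 9.11 ± 12.9 in knockout islets (SD, n = 2), while the log2 difference was -0.74. It was 1.39 without knockout replicate 1 and -2.88 without knockout replicate 2.

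Reg4, the intestinal member, had 0 and 1 reads in control columns 2 and 3, and 1 and 0 in knockout replicates 1 and 2. At this depth its level could not be told from 0 in any library.

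All genes were then ranked by how far each stood in 1 library above the highest of the other 3, as the log2 ratio after adding 3 to both values. This ranking was made after the values were seen and is a description. In knockout replicate 2, Reg3b ranked 1 of 55487 genes (4.01), Reg3g ranked 2 (3.45) and Reg3a ranked 3 (3.07). Only 4 genes in all, 0.00721% of the table, were at least 4-fold above every other library there, and the other one was Igkv14-111 (2.07), an immunoglobulin kappa segment with a value of 9.59. Reg3d (0.93) ranked 89 and Reg2 (0.79) ranked 125. The ranking in the other libraries was led by other genes: Igkv8-30 in control column 2 (3.03), Slc25a31 in control column 3 (2.53) and Igkv1-135 in knockout replicate 1 (4.72). The excess of Igkv1-135 was thus larger than that of Reg3b. In knockout replicate 1, 13 genes passed the 4-fold line, and in control column 2, 4 did.

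**Figure D2:**
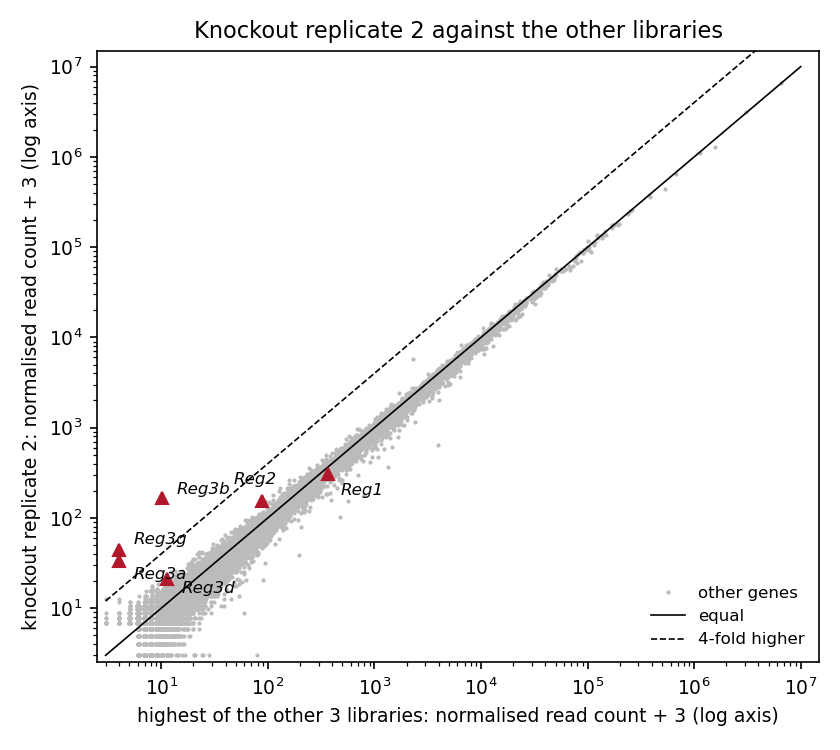
Normalised read count plus 3 in knockout replicate 2 (vertical, log axis) against the highest of the other 3 libraries (horizontal, log axis), for genes that reached a value of 3 in any library. Grey points are genes, red triangles are Reg genes, the solid line marks equality and the dashed line a 4-fold excess. Reg3b, Reg3g and Reg3a lie above the dashed line, at 161.1, 41.2 and 30.7 in knockout replicate 2. Reg4 is not plotted.

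Along the chromosome the pattern was not continuous. Reg3b, Reg3a and Reg3g, the members with a large excess in knockout replicate 2, are at 0, 10.1 and 95.6 kb from the start of the cluster. Reg3d, Reg2 and Reg1, which lie between them, had excesses of 0.93, 0.79 and -0.27 on the same log2 scale. The processed pseudogenes Gm21392 and Gm6072, beyond Reg3g, were listed at 0 in all 4 libraries.

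**Figure D3:**
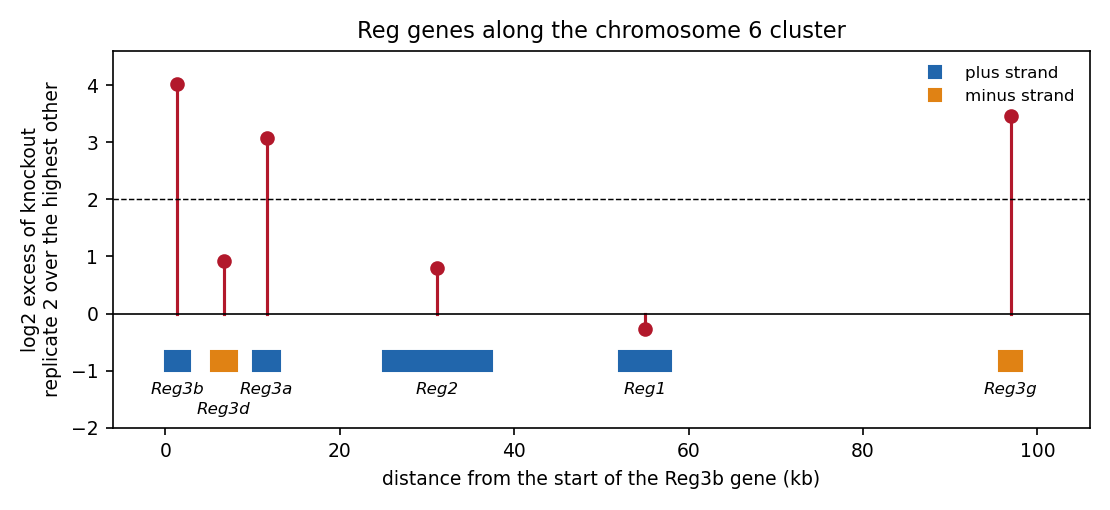
The 6 clustered Reg genes by distance from the start of Reg3b (kb; boxes, coloured by strand), with the log2 excess of knockout replicate 2 over the highest other library above each gene (red). The dashed line is a log2 excess of 2, which is 4-fold. Reg3b (4.01), Reg3a (3.07) and Reg3g (3.45) are above it, and Reg1 (-0.27) is below 0.

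Summed over the family, the Reg genes took 9.36 and 9.22 CPM (reads per 1000000 reads) in control columns 2 and 3, and 4.997 and 14.2 in knockout replicates 1 and 2. The controls lay between the knockout libraries, and the means differed by 0.288 CPM (exact permutation test, two-sided, p = 1). The make-up of the sum differed more than its size. The 4 Reg3 genes came to 3.90 and 1.53 per 100 of Reg1 plus Reg2 in controls and 3.04 in knockout replicate 1, but 55.6 in knockout replicate 2. The sum of Reg1 and Reg2 in knockout replicate 2 was 452, against 445 and 446 in controls and 239 in knockout replicate 1.

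The levels of Reg1 varied alongside those of the acinar enzymes. The summed value of 34 acinar markers was 22052 and 23309 in control columns 2 and 3, and 11842 and 18189 in knockout replicates 1 and 2 (exact permutation test, two-sided, p = 0.33, the smallest possible). Of the 27 acinar markers tested, 26 had a log2 fold change below 0 and 1 was called, Try4 (a trypsinogen), which fell by 0.73 on the log2 scale (limma adjusted p = 0.0251). edgeR called 1 and DESeq2 6 of the list lower, where over all 16589 genes they called 71 and 208 lower. An unadjusted limma p under 0.05 was reached by 20 of the list, against 14.1% of all genes tested. Their median log2 fold change was -0.66, against 0.0002 over all tested genes. Calls on this list are not counted for the fit without knockout replicate 2. Its knockout arm is 1 library, and its spread comes from the 2 controls and other genes. Pnlip, pancreatic lipase, had the highest mean of the enzymes, at 2335, 2850, 895 and 1915 in control columns 2 and 3 and knockout replicates 1 and 2 (log2 fold change -0.98 ± 0.27, adjusted p = 0.147). Bhlha15, a transcription factor of secretory cells and the gene of the list with the highest mean over the 4 libraries, was 2518, 1676, 2138 and 1894 in the same order. Ptf1a, a defining acinar transcription factor, had no read in 3 libraries and 1 in knockout replicate 1.

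Set against that sum, Reg1 hardly varied. Per 1000 of the acinar sum Reg1 was 16.3, 15.6, 14.9 and 16.6 in control columns 2 and 3 and knockout replicates 1 and 2, so the highest library was 1.11 times the lowest. The acinar sum itself spanned 1.97-fold. Reg2 did not keep that proportion: per 1000 of the acinar sum it was 3.89 and 3.55 in controls, 5.36 in knockout replicate 1 and 8.28 in knockout replicate 2, a span of 2.33-fold. Reg3b per 1000 of the acinar sum was 0.324, 0.0836, 0.527 and 8.86 in the same order, so knockout replicate 2 stood apart on this scale too.

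**Figure D4:**
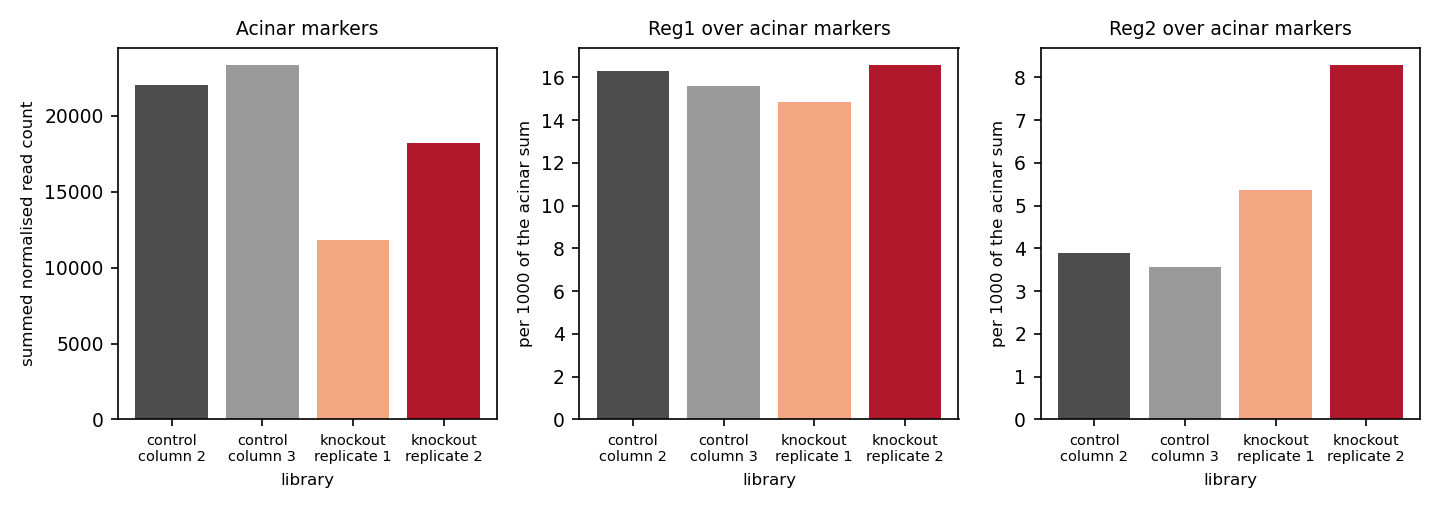
Bars for each of the 4 libraries: the summed normalised read count of 34 acinar markers (left), and Reg1 (middle) and Reg2 (right) per 1000 of that sum. The acinar sum runs from 11842 to 23309, Reg1 per 1000 stays between 14.9 and 16.6, and Reg2 per 1000 runs from 3.55 to 8.28.

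The genes most like each member were found by the root-mean-square distance between centred log2(value + 1) profiles over the 4 libraries, among 12303 genes with a mean of at least 50. For Reg1 they were Cela1, an elastase (0.036), Cpb1, a carboxypeptidase (0.041), and Prss2, a trypsinogen (0.050), and 18 acinar markers stood among the nearest 50 genes. For Reg2 they were Glipr2 (0.136), Mir6236 (0.162) and Atp8b5 (0.173), farther off than those of Reg1, and 1 acinar marker stood among the nearest 50. With 4 libraries such a profile has few degrees of freedom, so the distances are descriptions.

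The summed markers of the other cell types in knockout replicate 2 lay within or close to the range of the other libraries. Such sums are weighted to their most abundant genes, so they do not show whether less abundant markers stood apart. In knockout replicate 2, Krt7 alone gave 9331 of the duct sum and Rgs5 gave 10117 of the stellate and fibroblast sum. The summed duct markers were 12610 there and 12708 to 13359 in the other libraries, and the summed leukocyte markers 17568 against 17405 to 19901. The stellate and fibroblast sum was 13036 against 10781 to 13587, and the endothelial sum 28288 against 25281 to 28377. The beta cell sum was 11221156 against 10375133 to 10911136, the highest of the 4, and the alpha, delta and PP cell sum 1601446 against 1369762 to 1828772. By genotype, 0 of 8 duct, 0 of 11 leukocyte, 0 of 6 endothelial, 0 of 10 beta cell and 0 of 7 alpha, delta and PP cell markers tested were called by limma, with median log2 fold changes of 0.15, 0.01, 0.03, -0.01 and 0.26. At an unadjusted p under 0.05, which 14.1% of all genes tested reached, these counts were 1, 0, 0, 1 and 4. edgeR called none of them, and DESeq2 called 2 of the alpha, delta and PP list, both higher. Over all genes edgeR called 57 higher and 71 lower, and DESeq2 called 120 higher and 208 lower. Of 10 stellate and fibroblast markers tested, 9 had a log2 fold change above 0, with a median of 0.58. The 1 called by limma was Dcn, the matrix proteoglycan decorin. Dcn was 174.7 and 114.0 in controls and 408.0 and 296.3 in knockouts (log2 fold change 1.29 ± 0.21, limma adjusted p = 0.0449). edgeR and DESeq2 each called 1 of the stellate and fibroblast list higher, and 6 of the 10 had an unadjusted limma p under 0.05. Whether the make-up of the islet pools has a part in the Reg values was not tested beyond these sums.

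The signalling genes known to drive Reg3 transcription were then read in the same fit, where 14.1% of all genes tested had an unadjusted p under 0.05. That fit compares the groups, while the Reg3 excess lay in knockout replicate 2 alone. Calls on this and the following lists therefore do not bear on that excess. Whether these genes have a part in it was not tested. Among interleukin-6 family and interleukin-22 ligands, 0 of 5 tested were called by limma, edgeR or DESeq2 (0 at an unadjusted limma p under 0.05), with a median log2 fold change of 0.01. The most abundant were Ctf1, cardiotrophin, at 278.9, 228.0, 256.0 and 251.2, and Lif at 115.5, 71.1, 108.2 and 119.9 in control columns 2 and 3 and knockout replicates 1 and 2. Il22, picked out here after its values were seen, had 1 read in each of 3 libraries and 6 in knockout replicate 2. Among the receptors, 0 of 7 tested were called by the same tools (2 at an unadjusted limma p under 0.05), with a median of 0.04. Il6ra and Lifr led them, with log2 fold changes of 0.07 ± 0.07 and -0.21 ± 0.05 (limma adjusted p = 0.714 and 0.120). Il22ra1, a chain of the interleukin-22 receptor, had 2, 3, 0 and 3 reads in the same order of libraries.

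Of 11 JAK-STAT3 transducers and inhibitors tested, 0 were called by limma, with a median log2 fold change of -0.08. An unadjusted limma p under 0.05 was reached by 3, against 14.1% of all genes tested. edgeR called 0 and DESeq2 called 1 lower, where DESeq2 called 120 higher and 208 lower over all genes. Stat3, the transcription factor itself, was 6792 and 6549 in controls and 5844 and 5576 in knockouts (log2 fold change -0.22 ± 0.05, limma adjusted p = 0.0849). Socs3, a feedback inhibitor and itself a STAT3 target, was 3750, 3216, 3037 and 3578 in control columns 2 and 3 and knockout replicates 1 and 2 (-0.08 ± 0.09, adjusted p = 0.775). Jak1 and Ptpn11 were the most abundant of the list, at -0.14 ± 0.05 and -0.12 ± 0.05 (adjusted p = 0.243 and 0.358).

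Of 19 other STAT3 and acute-phase target genes, 10 were tested and 0 were called by limma (6 at an unadjusted p under 0.05, against 14.1% of all genes), with a median log2 fold change of 0.17, while edgeR called 0 and DESeq2 called 1 higher and 1 lower. Of the 10 tested, 5 had a log2 fold change above 0 and 5 below. Myc (0.56 ± 0.13) and Cp (0.57 ± 0.14) were among those above 0, picked out here after their values were seen. Their limma adjusted p was 0.0857 and 0.115. Saa1, Saa2, Saa3 and Orm1, acute-phase genes, had no read in any library. The most abundant were Junb, at 31693, 35775, 25281 and 29269, and Clu, the chaperone clusterin, at 14360, 13411, 12142 and 14843 in the same order (log2 fold changes -0.31 ± 0.08 and -0.05 ± 0.09, limma adjusted p = 0.122 and 0.859). Among the candidate receptor and other inducers, 0 of 9 tested were called by limma, edgeR or DESeq2 (2 at an unadjusted limma p under 0.05), with a median of -0.09. Extl3, a glycosyltransferase proposed as a receptor for Reg proteins, was 2280 and 2246 in controls and 2427 and 2296 in knockouts (0.06 ± 0.06, adjusted p = 0.692). Il17ra, a receptor chain for interleukin-17, was 1190, 1431, 1224 and 1221 in the same order (-0.09 ± 0.09, adjusted p = 0.696).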

How the data were processed

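Islet RNA enriched for poly(A) was sequenced, per the labels' protocols. Per the submitters' processing notes, the tools were STAR 2.5.1b, DESeq2 1.22.2, CASAVA 1.4 and featureCounts 1.6.0, on GRCm38, with no roles given. The strand setting is not given in the sources used here. Each signal value the authors deposited is the read count of a gene in a library divided by a size factor. Dividing a column by its value for 1 read returned whole reads in 100% of cases (within 0.01 read). The authors' deposited log2 fold changes are control over knockout, and their deposited p-values and adjusted p-values are quoted as such. Their deposited test score was not used. Columns of other samples numbered 0.

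The main test was limma 3.58.1 (R 4.3.3) on log2(value + 1), over the 16589 genes that reached a value of 10 in 2 or more of the 4 libraries. The log2 scale understates the changes of low genes. The test was two-sided with a mean-variance trend, and p-values were adjusted over all genes tested (Benjamini-Hochberg, threshold 0.05). Recovered reads were also tested with edgeR 4.0.16 and DESeq2 1.42.0. The fit was checked on simulated data. Intervals cover counting error only. The labels give the replicates as separate samples, each a pool of 2 mice. The chi-square per degree of freedom was 10.1 for the control and 9.85 for the knockout pair, so by this measure neither pair is 1 library deposited under 2 names.

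Members, lists and tests were chosen with earlier results of these data known. Named genes were the members, Ggcx, each list's called members (at most 4 by p) and its 2 most abundant, Extl3, Stat3, Socs3 and Il22ra1, and the 3 genes nearest to each member whose mean reached 50. Il22, Myc and Cp were added after their values were seen. Levels per kb used exons of protein-coding transcripts in GENCODE M21, which holds 99.4% of the table's identifiers. Start regions are from RefSeq (GRCm38.p6), matched for all 7 members, with positions counted from 1 at the start and from -1 before it. Other settings were pseudocounts of 0.5 and 5, no filter or a filter at 50, other scalings, limma without trend or robust, and each library left out.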

Additional observations from a re-analysis of the deposited data

How the results depend on the processing

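No paired analysis was possible because the control columns carry the numbers 2 and 3 and the knockout columns 1 and 2, which share fewer than 2 numbers. With 2 pools a group, 1 library can set a direction, and the Reg3 genes outside knockout replicate 2 are limited by counts of 8 reads or fewer. Of Reg1 and Reg2, tested under all settings, neither was called except without knockout replicate 2, where Reg1 was called lower, so that leaving out each library gave 0 to 1 calls. That call rests on a knockout arm of 1 library, with the spread of the 2 controls and of other genes. The other members were tested only where low values were let in, and no weight is put on those fits. Reg1 stayed below 0 under all 15 other settings, and Reg2 stayed above 0 except without knockout replicate 2, where its log2 fold change was -0.40, against 0.83 without knockout replicate 1. The difference in summed Reg reads ran from -4.30 CPM without knockout replicate 2 to 4.87 without knockout replicate 1. With the acinar sum taken without its 4 transcription factors, a choice made after seeing the data, the difference in Reg1 per 1000 went from -0.25 to 0.75, both within the spread between libraries. The number of genes 4-fold above every other library in knockout replicate 2 was 15 with 1 added and 2 with 10 added, with Reg3b, Reg3g and Reg3a among the first 3 ranks each time, also chosen after seeing the data.

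Over all genes, 1 was called higher and 1 lower with no filter, 19 and 32 with the filter raised to 50, 76 and 34 with upper quartiles made equal, 85 and 124 with robust empirical Bayes, and 120 and 208 with DESeq2. They were 56 and 84 where a value of 10 in any 1 library was enough, a setting added after seeing the data. Without the mean-variance trend 0 and 0 were called, with 1841 at an unadjusted p under 0.05. Leaving out each library gave 49 to 178 higher and 47 to 219 lower calls. The cause of these differences was not tested.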
